A study of Mus musculus with 10 samples.

Results

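The 8 genes described here write, maintain or remove DNA methylation: the methyltransferases Dnmt1, Dnmt3a and Dnmt3b, the cofactors Uhrf1 and Dnmt3l, and the dioxygenases Tet1, Tet2 and Tet3. They were picked by gene symbol from the 36172 genes of the deposited table, and all 8 were found in it. The RNA came from cells grown out of the left atrial appendage of C57BL/6 mice aged 8 to 12 weeks, with 2 libraries for each of 5 sorted cell types. B cells were primary outgrowths after weak digestion, with 0.05% trypsin, and were sorted as c-kit+/CD45+. C1, C2 and C3 cells descended from B-type cells. C1 cells were at passage 6 and c-kit+/CD45-, C2 cells at passage 8 and c-kit-/CD45-, and C3 cells at passage 10 and c-kit-/CD45-. A cells were primary outgrowths after strong digestion, with 0.25% trypsin, and were c-kit+/CD45-. Both digestions also used 0.1% collagenase D, and explants of either kind were cultured in one medium with serum. The study compared the transcription of the primary types and of the types that arose from B cells in culture. Digestion and sort differ together between B and A. Passage and sort do so between B and each C type, and between C1 and C2 or C3. Passage and the starting digestion differ together between A and each C type, and between A and C2 or C3 the sort differs as well. In these comparisons the parts cannot be told apart. Whether both libraries of a type had a mouse or a culture of their own is not stated, so each p-value reflects only how far these samples spread, which may be technical. In RNA from many cells, fewer cells of a type and less RNA per cell cannot be told apart.

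DNA methylation in mammals sits mainly on the cytosine of CpG dinucleotides. After replication UHRF1 recognises the half-methylated site and recruits DNMT1, which copies the mark onto the new strand. DNMT3A and DNMT3B set new marks, and DNMT3L, which has no catalytic activity of its own, stimulates them, a role best known from germ cells and early embryos. The TET enzymes oxidise methylcytosine, which leads to its removal by base excision repair or to its loss through cell division. In blood cells, DNMT3A and TET2 are known as regulators of stem cell function and of myeloid differentiation.

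All values below are on the deposited log2 scale with the median of each gene over the 10 libraries taken away, called centred log2 values here. A value of 0 is therefore the middle of that gene over these libraries, and levels cannot be compared between genes. No member had a lowest value shared by 2 libraries, which would have marked the floor of the scale, so the read level of the members is unknown. Whether a member lay near the limit of detection in its lowest type could not be told. The spacing of low values gave a relative depth between 0.436 in a B library and 5.03 in a C3 library. Of the low values in a library, 33.2% to 70.5% were whole reads to within 0.01. That share was lowest in the 2 C3 libraries, at 41.7% and 33.2%, so the spacing fitted them least well. Of all genes 14253 were tested, and all 8 members were among them. The 2 A libraries differed most, with a root mean square log2 difference of 1.06 against 0.435 to 0.520 in the other types. The sort genes followed the labels in part. Ptprc, which encodes CD45, stood at 11.46 and 11.41 in B, between -0.0056 and 0.0056 in the C libraries, at or next to its lowest value, but at 2.74 and 6.35 in A. Kit, which encodes c-kit, was at 1.81 and 0.96 in B cells, 2.43 and 3.35 in C1 cells, -2.71 and -1.07 in C2 cells, -2.71 in both C3 libraries, and -0.96 and 3.47 in A. Without both A libraries the number of called members was the same in all 6 comparisons among B, C1, C2 and C3.

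A difference is given with its standard error from limma, and "rose" or "fell" is used where the limma adjusted p was under 0.05 and the log2 difference at least 1. Among the 5 types, 7 of 8 members differed by limma's F test, against 82.9% of all genes tested, so that share is not particular to the members. Dnmt3b was the exception (limma adjusted p = 0.0728). The members did not all follow 1 pattern. Dnmt1 and Uhrf1 were lowest in C1 and highest in C3, Dnmt3a was highest in B, Dnmt3l was highest in A and lowest in C3, and Tet1 was highest in C2.

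**Figure D1:**
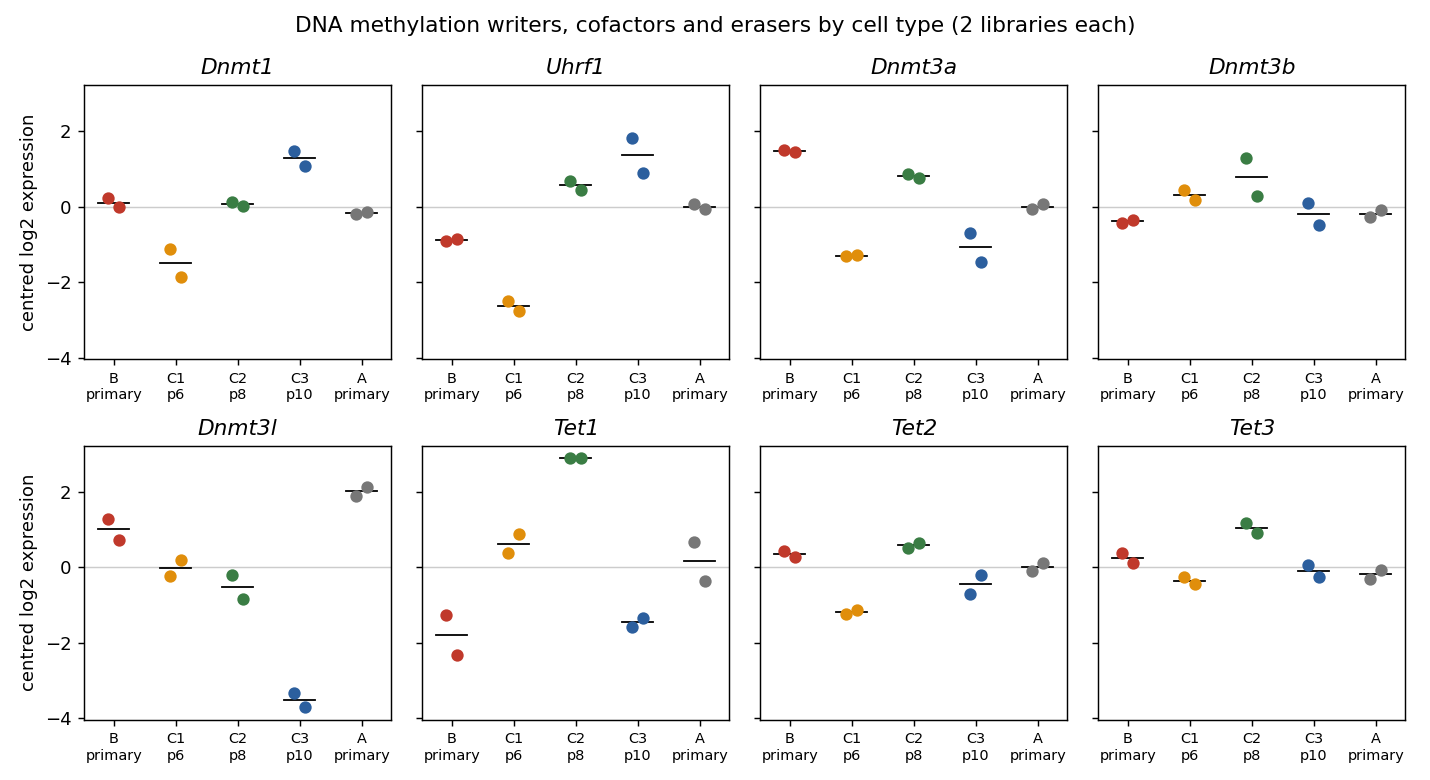
Centred log2 expression of the 8 members in each library (points) with the mean of the 2 libraries (bars), for B, C1 at passage 6 (p6), C2 at passage 8 (p8), C3 at passage 10 (p10) and A. Dnmt3l lies at -3.33 and -3.71 in C3, and Tet1 at 2.89 and 2.88 in C2.

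Dnmt1 and Uhrf1 maintain methylation as a pair. Dnmt1, the methyltransferase that copies methylation at replication (chromosome 9, 20907206 to 20959888, build GRCm38), had centred log2 values of 0.22 and -0.013 in B cells, -1.13 and -1.85 in C1 cells, 0.13 and 0.013 in C2 cells, 1.46 and 1.09 in C3, and -0.20 and -0.14 in A. Uhrf1, the reader of half-methylated CpG (chromosome 17, 56303337 to 56323486), had -0.92 and -0.85 in B cells, -2.49 and -2.76 in C1 cells, 0.69 and 0.44 in C2 cells, 1.82 and 0.88 in C3, and 0.0715 and -0.0715 in A. For both genes the 2 C1 libraries were the lowest of the 10 and the 2 C3 libraries the highest.

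Both genes fell in C1 relative to B, Dnmt1 with a log2 difference of -1.59 ± 0.26 (limma adjusted p = 0.00217) and Uhrf1 with -1.74 ± 0.30 (limma adjusted p = 0.00275). Both then rose in C2 relative to C1, Dnmt1 with 1.56 ± 0.26 (limma adjusted p = 0.00453) and Uhrf1 with 3.19 ± 0.30 (limma adjusted p = 0.000534). Between passages 6 and 10 the gap was widest. C3 exceeded C1 6.79-fold for Dnmt1 (limma adjusted p = 0.000185) and 15.8-fold for Uhrf1 (limma adjusted p = 7.77e-05). In C3 relative to C2, Dnmt1 rose by 1.20 ± 0.26 (limma adjusted p = 0.0088), while Uhrf1 had 0.79 ± 0.30 and did not pass (limma adjusted p = 0.0667). The C3 libraries differed here: without C3 replicate 1 Dnmt1 had 1.02 and lost its call (limma adjusted p = 0.056), and without C3 replicate 2 Uhrf1 had 1.26 and gained one (limma adjusted p = 0.00907). In the order of levels, C3 stood above B for Dnmt1 with 1.17 ± 0.26 (limma adjusted p = 0.00664), a call that ended without C3 replicate 1, where the difference was 0.98. B, C2 and A, which lay next to each other, did not pass against one another (limma adjusted p = 0.93 for C2 and B, 0.513 for C2 and A, 0.438 for B and A). For Uhrf1 no neighbouring pair among C3, C2, A and B passed, the closest being B and A with -0.88 ± 0.30 (limma adjusted p = 0.0514).

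Genes of DNA replication and of mitosis changed in the same comparisons as this pair. In the S phase list, a set of replication genes without the members, the mean centred log2 value was -0.37 and -0.38 in B cells, -0.95 and -1.24 in C1 cells, 0.34 and 0.37 in C2 cells, 1.97 and 1.46 in C3, and 0.14 and -0.12 in A. In C1 relative to B, 7 of its 17 measured genes fell and 10 did not pass, with a median log2 difference of -0.62 against -0.066 over all genes tested, while quantile normalization left 3 that fell. Relative to C1, 13 of 17 rose in C2, with a median of 1.41 against 0 over all genes. Relative to C2, 12 of 17 rose in C3, with a median of 1.24 against 0 over all genes. Mcm5, a subunit of the replicative helicase, had -1.66 ± 0.25 in C1 relative to B and 2.91 ± 0.25 in C2 relative to C1. Rrm2, a subunit of ribonucleotide reductase, had -1.71 ± 0.20 and 2.23 ± 0.20 in the same comparisons, and 2.38 ± 0.20 in C3 relative to C2. In the mitosis list 10 of 12 genes fell in C1 relative to B, 12 of 12 rose in C2 relative to C1 and 10 of 12 rose in C3 relative to C2. Mki67, a marker of cycling cells, had -2.78 ± 0.27 in C1 relative to B and 3.73 ± 0.27 in C2 relative to C1. Between C3 and C1, 16 of 17 S phase genes and 12 of 12 mitosis genes rose. Over all genes 21.1% were called lower in C1 relative to B and 12.2% higher in C2 relative to C1. The share called higher was 11.6% in C3 relative to C2 and 17.1% in C3 relative to C1. The part of cell division in the values of Dnmt1 and Uhrf1 was not tested.

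**Figure D2:**
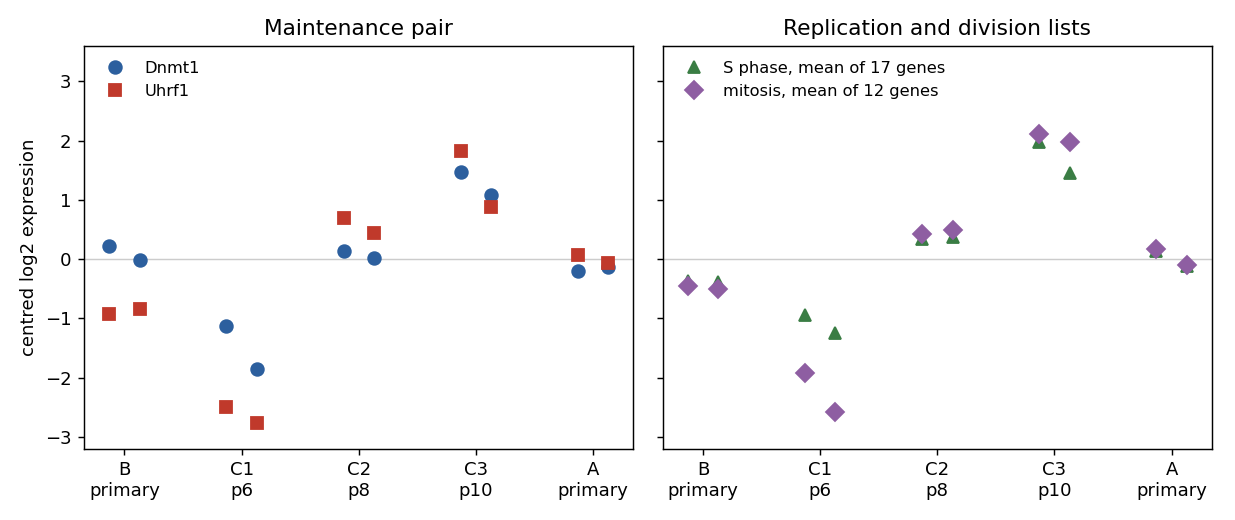
Centred log2 values by library for Dnmt1 and Uhrf1 (left) and for the means of the S phase list of 17 genes and the mitosis list of 12 genes (right), in B, C1, C2, C3 and A, with p6, p8 and p10 for the passages. For each of the 4 measures the C1 libraries lie lowest and the C3 libraries highest.

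Because Dnmt1 and Uhrf1 moved together, their promoters were searched for the letters of E2F sites, the elements through which E2F factors drive replication genes. Letters of the CRE site (TGACGTCA) and the CCAAT box were searched as well, and so were those of the SP site, which are GGGCGG. The search covered 250 bases before each start site that RefSeq lists (GRCm38.p6), on both strands, and the E2F letters were TTTCCCGC, TTTGGCGC, TTTCGCGC and TTTGCCGC. Of the 32851 windows of all genes 1.86% held an E2F match, as did 4.10% of the 3150 windows with at least 26 CpG. Among the 15 windows of the 8 members, 1 of 3 of Dnmt1 and 1 of 2 of Uhrf1 held one, and the other windows held none. These windows were rich in CpG, with 26 in Dnmt1 and 30 in Uhrf1 where the median over all windows was 6, and the matched letters hold CpG themselves. The other letters were not confined to the pair or not found. SP letters were in 11 of the 15 windows and in all 8 members (32.7% of all windows), CCAAT in 5 windows of 3 members, Dnmt1, Uhrf1 and Tet3 (33.8% of all windows), and CRE in 0 (1.55% of all windows). The SP letters hold a CpG too, and their share among windows rich in CpG was not taken, so 11 of 15 is no sign of enrichment. The Dnmt3a windows that start at 3806730 and 3806910 also overlap. The E2F stretches are given 5′ to 3′ on the strand of the gene, 30 bases each, with the match in capitals. In Dnmt1 it is the reverse complement of TTTCGCGC and starts 219 bases before its start site (chr9:20952824-20952853, minus strand). In Uhrf1 it is TTTCGCGC itself, 185 bases before the start site (chr17:56304117-56304146, plus strand).
Dnmt1: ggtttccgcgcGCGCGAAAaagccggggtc
Uhrf1: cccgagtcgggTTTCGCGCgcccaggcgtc
The 2 stretches share these 8 letters, in opposite orientation. The Dnmt1 stretch also lies in an exon of other Dnmt1 transcripts in GENCODE, and the Uhrf1 stretch in none. A match is a description of the letters and does not show that a factor binds there. Among the other members, the 3 windows of Dnmt3l held 5, 4 and 3 CpG and the single window of Tet2 held 51.

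Of the de novo enzymes, Dnmt3a changed most and Dnmt3b least. Dnmt3a (chromosome 12, 3801559 to 3914443) had 1.50 and 1.45 in B cells, -1.30 and -1.29 in C1 cells, 0.87 and 0.76 in C2 cells, -0.69 and -1.46 in C3, and -0.070 and 0.070 in A. Both B libraries exceeded every other library, and the C1 and C3 libraries lay below all others and overlapped each other. Dnmt3a rose in B relative to A with 1.47 ± 0.24 (limma adjusted p = 0.00322), fell in C1 relative to B with -2.77 ± 0.24 (limma adjusted p = 0.000159), rose in C2 relative to C1 with 2.11 ± 0.24 (limma adjusted p = 0.00111) and fell in C3 relative to C2 with -1.89 ± 0.24 (limma adjusted p = 0.00115). Its direction turned at each step of the culture. B exceeded C1 6.81-fold. C3 and C1 did not pass against each other (0.22 ± 0.24, limma adjusted p = 0.474), and neither did C2 and B (-0.65 ± 0.24, limma adjusted p = 0.056). It fell in C3 relative to A, its neighbour in the order, with -1.07 ± 0.24 (limma adjusted p = 0.00872), which became -0.69 and was not called without C3 replicate 2. That call also ended in the fit on the 4 libraries alone (limma adjusted p = 0.0858) and under quantile normalization (-0.70). Under quantile normalization the difference between B and A was 0.996, just short of the size that counts, and that between C2 and B turned to 0.16. A short antisense gene, Dnmt3aos, overlaps 133 exonic bases of Dnmt3a, and the library kit does not mark strand.

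Markers of white blood cells moved with Dnmt3a between the primary types and into C1, and few did after that. Of the 12 measured markers 12 rose in B relative to A (8 under quantile normalization) and 12 fell in C1 relative to B, while limma called 0 in C2 relative to C1 and 0 in C3 relative to C2 (2 and 1 at an unadjusted p under 0.05). Among the 12, Ptprc, Cd52, Tyrobp and Emr1 passed the filter on low values only through B. Outside B, only A replicate 2 reached the level that the filter asked for in 2 libraries. The calls of these genes against B were therefore set by the filter. Without both A libraries 1 of the 12 markers rose and 3 fell in C2 relative to C1. Their mean centred log2 value was 9.43 and 9.42 in B cells, 0.11 and 0.059 in C1 cells, -0.53 and -0.54 in C2 cells, -0.81 and -0.92 in C3, and -0.068 and 4.07 in A. The 2 A libraries stood far apart in this mean, while their values of Dnmt3a lay close together. Fibroblast markers moved too: 7 of 10 fell in B relative to A, 2 rose and 3 fell in C1 relative to B, 5 rose and 1 fell in C2 relative to C1, and 9 of 10 fell in C3 relative to C2. The mean of the fibroblast markers was 0.30 and 0.20 in B cells, -1.31 and -1.48 in C1 cells, 0.75 and 0.64 in C2 cells, -1.93 and -2.64 in C3, and 2.25 and 1.85 in A. Of 5 epicardial and mesothelial markers, 3 rose in B relative to A, 2 fell in C1 relative to B, 1 rose in C2 relative to C1 and 4 rose in C3 relative to C2. Of 5 endothelial markers, 2 rose in B relative to A, where quantile normalization gave 1 that rose and 2 that fell, and 5 fell in C1 relative to B. In C2 relative to C1, 2 of them rose, and in C3 relative to C2, 1 did. Of 5 smooth muscle markers, 2 fell in B relative to A, 1 fell in C1 relative to B, 1 rose in C2 relative to C1 and 1 fell in C3 relative to C2. Over all genes 26.9% were called in B relative to A and 33.7% in C1 relative to B. The share was 20.4% in C2 relative to C1 and 27.9% in C3 relative to C2. With 5 genes, the smooth muscle counts are close to these shares. Of 7 cardiomyocyte markers 3 were measured. Of these, Myl7 passed the filter on low values through C3 alone, so its call there was set by the filter, and the other two were not called in C3 relative to C2. The part of these cell types in the results for the members was not tested.

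Dnmt3b (chromosome 2, 153649411 to 153687730) had -0.42 and -0.35 in B cells, 0.43 and 0.17 in C1 cells, 1.28 and 0.27 in C2 cells, 0.098 and -0.50 in C3, and -0.27 and -0.098 in A. The highest value came from a single C2 library, whose partner overlapped the C1 libraries. Of its 10 comparisons only C2 against B passed, with 1.16 ± 0.35 (limma adjusted p = 0.0276). That call was lost without C2 replicate 1 (0.65, limma adjusted p = 0.116), without B replicate 1 (1.12, limma adjusted p = 0.106), without B replicate 2 (1.20, limma adjusted p = 0.0917) and in the fit on the 4 libraries alone (limma adjusted p = 0.0709). Without C2 replicate 2 it fell in C3 relative to C2 with -1.48 (limma adjusted p = 0.0126), against -0.97 ± 0.35 with both libraries (limma adjusted p = 0.057).

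Dnmt3l, the cofactor without catalytic activity (chromosome 10, 78042287 to 78063622), covered the widest range of the 8 members. It had 1.27 and 0.73 in B cells, -0.24 and 0.19 in C1 cells, -0.19 and -0.85 in C2 cells, -3.33 and -3.71 in C3, and 1.90 and 2.14 in A. Both A libraries exceeded all others and both C3 libraries lay far below all others, while C1 and C2 overlapped. Dnmt3l fell in C3 relative to C2 with -3.00 ± 0.30 (limma adjusted p = 0.000494), in C3 relative to B with -4.52 ± 0.30 (limma adjusted p = 3.75e-05) and in C3 relative to A with -5.54 ± 0.30 (limma adjusted p = 2.49e-05), so that A exceeded C3 46.4-fold. These 3 comparisons share the C3 libraries. C2 and C1 did not pass against each other (-0.50 ± 0.30, limma adjusted p = 0.243). It also fell in B relative to A with -1.01 ± 0.30 (limma adjusted p = 0.035) and in C1 relative to B with -1.02 ± 0.30 (limma adjusted p = 0.027), just past the size that counts. The first of these calls ended without A replicate 1 (-1.13), A replicate 2 (-0.89), B replicate 2 (-0.74), C3 replicate 1 or C3 replicate 2 (-1.01 in both, limma adjusted p = 0.0501), and in the fit on the 4 libraries alone (limma adjusted p = 0.0807). The second ended without B replicate 1 (-0.75) or C1 replicate 1 (-0.81) and under quantile normalization (-0.70). Aire, a gene on the opposite strand, shares 67 exonic bases with Dnmt3l. The filter on low values removed Aire. Its normalized values were 4.59 and 5.75 in B cells, 1 in each of the 6 C libraries and 5.56 and 15.4 in A. Aire was thus higher in B and A, where Dnmt3l was highest. Among the C types, where Dnmt3l fell in C3, it stayed at its lowest value. Without strand the reads in the shared bases cannot be told apart.

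The 3 TET enzymes shared a rise in C2 relative to C1 and a fall in C3 relative to C2. Tet1 (chromosome 10, 62804570 to 62887469), the member best known from embryonic stem cells and germ cells, moved most. It had -1.25 and -2.33 in B cells, 0.37 and 0.88 in C1 cells, 2.89 and 2.88 in C2 cells, -1.57 and -1.33 in C3, and 0.68 and -0.37 in A. The C2 libraries exceeded every other library, and the B and C3 libraries were the lowest and overlapped. Tet1 rose in C1 relative to B with 2.41 ± 0.45 (limma adjusted p = 0.00394), rose again in C2 relative to C1 with 2.26 ± 0.45 (limma adjusted p = 0.00887) and fell in C3 relative to C2 with -4.33 ± 0.45 (limma adjusted p = 0.000521). C2 exceeded B 25.5-fold (limma adjusted p = 0.000223) and C3 20.2-fold. The C2 to C1 call ended without C1 replicate 1 (2.01, limma adjusted p = 0.0557). C3 and B did not pass against each other (0.34 ± 0.45, limma adjusted p = 0.54), and neither did C1 and A (0.47 ± 0.45, limma adjusted p = 0.421). Tet1 fell in B relative to A with -1.94 ± 0.45 (limma adjusted p = 0.0128), a call that was lost without B replicate 2 (-1.40, limma adjusted p = 0.0708) and in the fit on the 4 libraries alone (limma adjusted p = 0.107). It also fell in C3 relative to A with -1.60 ± 0.45 (limma adjusted p = 0.021), which did not hold without A replicate 1 (-1.08), C3 replicate 1 (-1.48) or C3 replicate 2 (-1.72), under quantile normalization (-1.08) or in the fit on the 4 libraries alone (limma adjusted p = 0.0684).

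Tet2 (chromosome 3, 133463677 to 133545136), which is often mutated in myeloid disease in humans, had 0.44 and 0.26 in B cells, -1.23 and -1.14 in C1 cells, 0.52 and 0.65 in C2 cells, -0.70 and -0.19 in C3, and -0.10 and 0.10 in A. Its C1 libraries lay below all others. It fell in C1 relative to B with -1.54 ± 0.19 (limma adjusted p = 0.000786) and rose in C2 relative to C1 with 1.77 ± 0.19 (limma adjusted p = 0.000991). The fall in C3 relative to C2 was -1.04 ± 0.19 (limma adjusted p = 0.00538) and dropped under the size that counts without C2 replicate 2 (-0.97) or C3 replicate 1 (-0.78). In the order of its levels, none of the neighbouring pairs C2 and B, B and A, C3 and A, and C3 and C1 was called. The last of these missed on size alone, with 0.74 ± 0.19 in C3 relative to C1 (limma adjusted p = 0.0167). A short antisense gene, Gm42567, overlaps 43 exonic bases of Tet2.

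Tet3 (chromosome 6, 83362373 to 83457208), the TET enzyme known from the zygote, had 0.38 and 0.13 in B cells, -0.26 and -0.45 in C1 cells, 1.17 and 0.90 in C2 cells, 0.061 and -0.26 in C3, and -0.32 and -0.061 in A. Here the C2 libraries stood above all others, and the types other than C2 lay within 0.61 of each other in their means. It rose in C2 relative to C1 with 1.38 ± 0.19 (limma adjusted p = 0.00235). The fall in C3 relative to C2 was -1.13 ± 0.19 (limma adjusted p = 0.00356), which was -0.99 without C2 replicate 1 and -0.97 without C3 replicate 2, both under the size that counts. Between C1 and B it had -0.61 ± 0.19 and was not called.

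**Figure D3:**
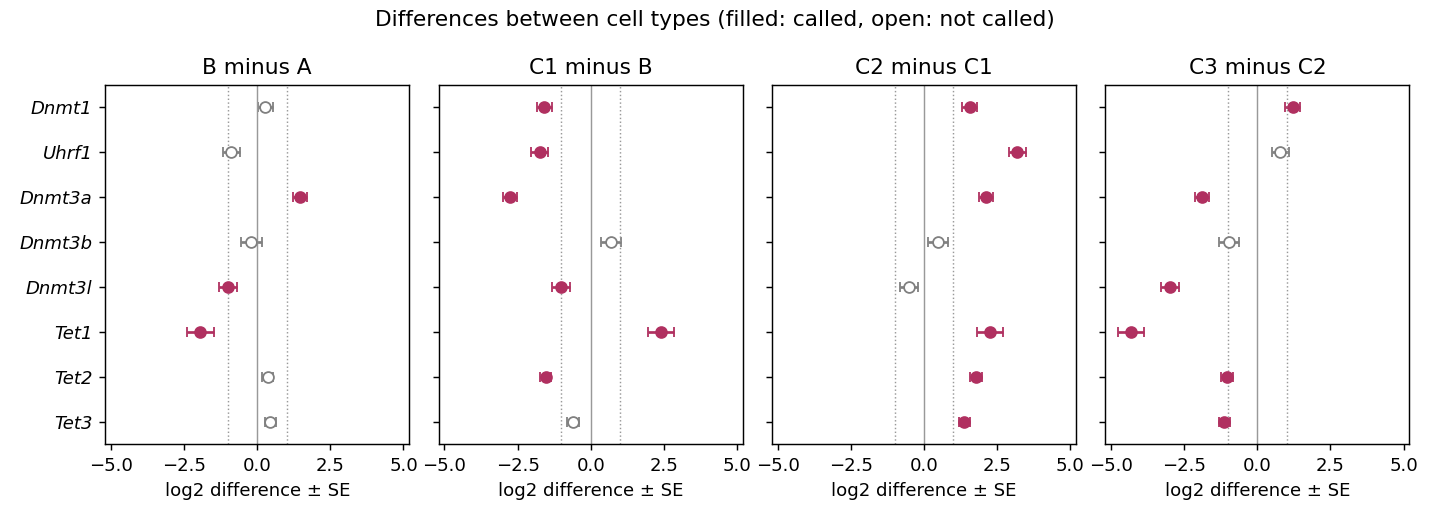
Log2 differences with standard errors for the 8 members in B minus A, C1 minus B, C2 minus C1 and C3 minus C2, with filled points for called and open points for not called differences. Dotted lines mark a log2 difference of 1 in either direction. In C2 minus C1 every called member lies right of 0, and in C3 minus C2 Dnmt1 is the only called member right of 0.

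Counted by comparison, 6 of 8 members were called in each of the 3 steps through culture, and fewer between the primary types. In B relative to A, 1 of 8 rose (Dnmt3a) and 2 fell (Dnmt3l and Tet1), where 26.9% of all genes tested were called (14.5% higher and 12.4% lower). In C1 relative to B, 1 rose (Tet1) and 5 fell (Dnmt1, Uhrf1, Dnmt3a, Dnmt3l and Tet2), where 33.7% of all genes were called (12.6% higher and 21.1% lower). In C2 relative to C1, 6 rose (Dnmt1, Uhrf1, Dnmt3a, Tet1, Tet2 and Tet3), against 20.4% called over all genes (12.2% higher and 8.18% lower). In C3 relative to C2, 1 rose (Dnmt1) and 5 fell (Dnmt3a, Dnmt3l, Tet1, Tet2 and Tet3), against 27.9% over all genes (11.6% higher and 16.2% lower). Dnmt3a, Tet1, Tet2 and Tet3 are called in both of these last comparisons, which share the C2 libraries. In C1 relative to A, both of them c-kit+/CD45-, 5 fell (Dnmt1, Uhrf1, Dnmt3a, Dnmt3l and Tet2), against 26.6% over all genes (10.1% higher and 16.6% lower). Without C1 replicate 2, Dnmt1 had -0.96 there and was not called, and in the fit on the 4 libraries alone its limma adjusted p was 0.0691. In C3 relative to C1 the counts were 2 up (Dnmt1 and Uhrf1) and 2 down (Dnmt3l and Tet1), against 34.8% (17.1% higher and 17.7% lower). In C3 relative to B they were 2 up (Dnmt1 and Uhrf1) and 2 down (Dnmt3a and Dnmt3l), against 41.4% (16.7% higher and 24.7% lower), a share near that of the members. Without C3 replicate 2 this comparison also called Tet2, with -1.05. In C2 relative to B, 3 rose (Uhrf1, Dnmt3b and Tet1) and 1 fell (Dnmt3l), against 33.9% (14.5% higher and 19.4% lower). In C2 relative to A, 2 rose (Tet1 and Tet3) and 1 fell (Dnmt3l), against 18.4% (7.75% higher and 10.6% lower). In the fit on the 4 libraries alone the calls of Tet1 (limma adjusted p = 0.0531) and Tet3 (limma adjusted p = 0.0611) were lost. In C3 relative to A, 2 rose (Dnmt1 and Uhrf1) and 3 fell (Dnmt3a, Dnmt3l and Tet1), against 34.3% (14.4% higher and 19.9% lower). Of these, the 4-library fit lost Uhrf1 too (limma adjusted p = 0.0762). Uhrf1 had 0.88 in that comparison without C3 replicate 1 and was not called. With 8 genes these shares are a description, and they were not tested against the background.

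The wider methylation machinery was followed in lists of partner genes. Of the 10 partners of maintenance, 4 fell in C1 relative to B (3 fell and 1 rose under quantile normalization), 3 rose in C2 relative to C1 and 3 rose in C3 relative to C2. Over all genes 21.1% were called lower in the first of these comparisons, 12.2% higher in the second and 11.6% higher in the third. The median log2 differences were 0.17, 0.71 and 0.66 in these comparisons, against -0.066, 0 and 0 over all genes, so in C1 relative to B the median and the calls point opposite ways. Hells, a chromatin remodeller needed for methylation, rose with 2.32 ± 0.37 in C2 relative to C1 and 1.80 ± 0.37 in C3 relative to C2. Lig1, the ligase that joins replication fragments, had -1.28 ± 0.28 in C1 relative to B and 2.34 ± 0.28 in C2 relative to C1. Pcna, the replication clamp, rose with 1.30 ± 0.22 in B relative to A, fell with -1.45 ± 0.22 in C1 relative to B and rose with 1.32 ± 0.22 in C3 relative to C2.

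Of 11 measured recruiters and histone-linked partners of de novo methylation, 3 rose in C2 relative to C1, against 12.2% of all genes called higher: the Polycomb enzyme Ezh2 (2.36 ± 0.21), the corepressor Trim28 (1.33 ± 0.22) and the histone methyltransferase Setdb1 (1.27 ± 0.14). The list had 1 gene that fell in B relative to A, 1 that rose and 1 that fell in C1 relative to B, and 1 that rose in C3 relative to C2. Over all genes 26.9%, 33.7% and 27.9% were called in these comparisons, so these counts lie under the background. Setdb1 was the one that fell in C1 relative to B (-1.46 ± 0.14), and Ezh2 the one that rose in C3 relative to C2 (1.19 ± 0.21). Zfp57, which protects methylation at imprinted genes, had -1.91 ± 0.14 in B relative to A and 2.91 ± 0.14 in C1 relative to B. Of the 10 methyl-CpG readers, most of which bind methylated DNA, few were called. Limma called 0 of them in B relative to A, 0 in C1 relative to B and 0 in C2 relative to C1 (3, 3 and 5 at an unadjusted p under 0.05). Zbtb4 alone fell in C3 relative to C2, with -1.83 ± 0.16. Over all genes 26.9%, 33.7%, 20.4% and 27.9% were called in these comparisons, so the reader counts lie under the background.

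Of the 17 measured partners of demethylation, which include repair enzymes, deaminases and enzymes that set the supply of the TET cofactor, 9 fell and 1 rose in C3 relative to C2, with a median log2 difference of -1.04 against 0 over all genes, where 16.2% were called lower. Under quantile normalization 5 fell and 1 rose, with a median of -0.17 against 0.043 over all genes. Among those that fell were the DNA glycosylase Neil2 (-2.88 ± 0.47), D2hgdh, which clears the TET inhibitor D-2-hydroxyglutarate (-1.66 ± 0.15), and the deaminase Apobec3 (-1.57 ± 0.20). Gadd45g, a stress response gene that has been linked to demethylation, rose with 2.11 ± 0.23. In B relative to A, 4 of the 17 rose and 1 fell (2 and 1 under quantile normalization), with 4.85 ± 0.56 for Apobec1, a deaminase best known for mRNA editing. With 26.9% of all genes called there, that share is near the background. Of 14 genes of methyl donor supply, 3 rose in C2 relative to C1, against 12.2% of all genes called higher, and 2 rose in C3 relative to C2, against 11.6%, which is near the background. Mthfd2, an enzyme of mitochondrial folate metabolism, rose with 2.34 ± 0.17 in C2 relative to C1, and Mtrr, the reductase that reactivates methionine synthase, with 1.28 ± 0.23 in C3 relative to C2.

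**Figure D4:**
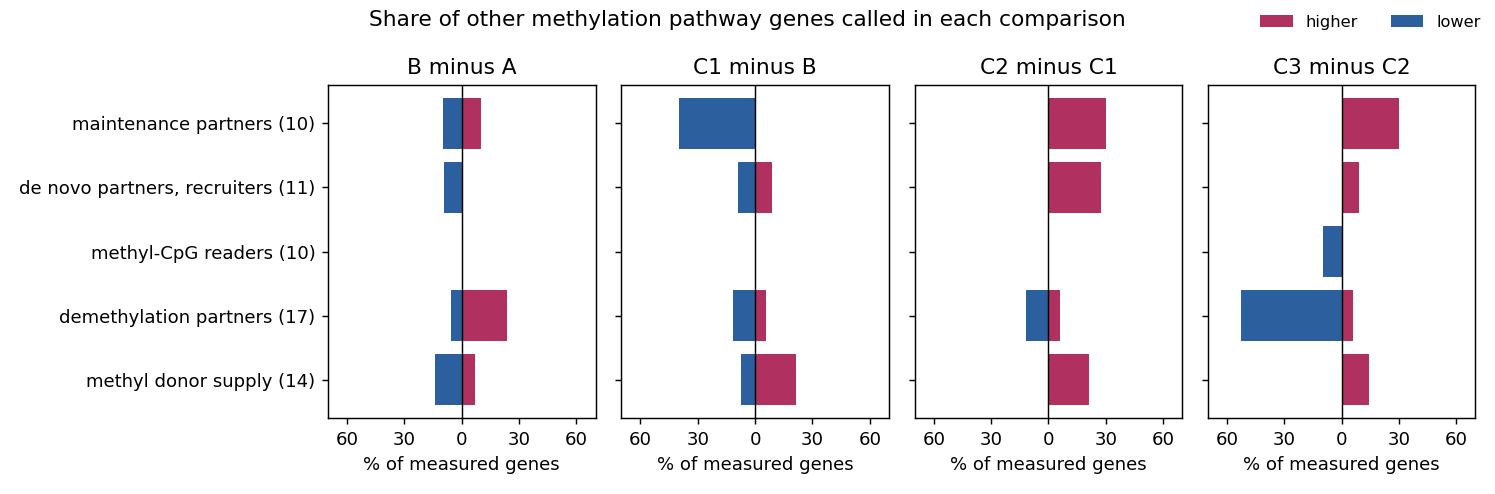
Share of the measured genes of 5 lists (number in brackets) called higher (right of 0) or lower (left of 0) in B minus A, C1 minus B, C2 minus C1 and C3 minus C2, in percent. The widest bar is the demethylation list in C3 minus C2, where 9 of 17 genes were lower.

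Genes of the germ line whose promoters are known to be silenced by methylation were read as well, although methylation itself was not measured. Of 19 listed, 4 passed the filter on low values. Dpep3 passed it through B alone and stood at its lowest value in all other libraries, so its calls against B were set by the filter and are not counted. Ddx4, an RNA helicase of germ cells, had 1.24 and 0.72 in B cells, 1.19 and 0.14 in C1 cells, -3.28 and -3.23 in C2 cells, -0.024 and 0.024 in C3, and -3.28 and -1.42 in A. Ddx4 rose in B relative to A with 3.33 ± 0.60 (limma adjusted p = 0.00487), with A replicate 1 at its lowest value. It fell in C2 relative to C1 (limma adjusted p = 0.00353) and rose in C3 relative to C2 (limma adjusted p = 0.00501), with C2 at or next to its lowest value. Rhox5, a homeobox gene of the X-linked reproductive cluster, had 2.32 and 2.74 in B cells, -1.44 in both C1 libraries, -1.44 and -1.39 in C2 cells, 0.071 and -0.071 in C3, and 5.17 and 3.99 in A. It fell in B relative to A with -2.05 ± 0.36 (limma adjusted p = 0.00414). Rhox5 also fell in C1 relative to B (limma adjusted p = 0.000183), where C1 was at its lowest value. The call in C3 relative to C2 (limma adjusted p = 0.0167) set C3 against libraries at or next to the lowest value. The C3 libraries were estimated to be deeper, with relative depths of 3.86 and 5.03 against 0.490 and 0.966 in C2. Both limits hold for the rise of Ddx4 in C3 relative to C2 too. Sycp3 was not called in B relative to A or in the 3 steps through culture.

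Likeness over the 10 libraries was measured as Pearson's r of the centred log2 values. It is given as a description, since all genes share the same libraries and depths. The 3 genes outside the members most like Dnmt1 were H2afz (r = 0.99), Ccdc99 (0.99) and Incenp (0.98), and those most like Uhrf1 were Spc24, Lmnb1 and Rfc5 (0.99 each). Dnmt3a was closest to Hlx (0.97), Mxi1 (0.97) and Pgap2 (0.97), Dnmt3b to Hdac6 (0.93), Zfp579 (0.90) and Capn1 (0.90), and Dnmt3l to Tfpi2 (0.99), Col14a1 (0.99) and Clip2 (0.99). For Tet1 they were Jmy (0.98), Gm6277 (0.98) and Scml2 (0.97), for Tet2 Itga7 (0.96), Pdk1 (0.96) and Clcn5 (0.95), and for Tet3 AI428936 (0.95), Fam184a (0.94) and Gga2 (0.93). Among the members themselves r was highest for Dnmt1 and Uhrf1 (0.91) and for Dnmt3a and Tet2 (0.84), and lowest for Dnmt1 and Dnmt3l (-0.56).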

How the data were processed

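RNA-seq was measured in 10 samples, 2 for each of 5 cell types. The authors deposited 1 table of log2 values. Its cells are log2 values, read here as normalized reads with values below 1 raised to 1, from which the median of each gene over the 10 libraries was subtracted. This reading comes from the values. TopHat, DESeq and the mouse build mm10 are named in the submitters' processing notes without version or role. Libraries were made with a TruSeq RNA v2 kit, per the labels' protocols.

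Of 36172 genes listed, 17 whose cell held a date were left out, 18334 were 0 in every library and 17821 had values. Genes whose floor was visible, 4763 in all, had to reach 10 normalized reads in 2 libraries, which removed 3568 and left 14253. The spacing of low values gave the relative depth, the deepest library having 11.5 times that of the shallowest. limma 3.58.1 in R 4.3.3 was fitted to all 10 libraries with 1 mean per type, two-sided, with Benjamini-Hochberg adjustment over all genes tested in each comparison. Calls needed an adjusted p under 0.05 and a log2 difference of at least 1. The depth estimate recovered the depth set in 10 of 10 simulated libraries, which held more whole values than the C3 libraries. The limma calls were also run on simulated data, with far fewer changed genes than here and the same spread in all types. That simulation does not cover the wider spread of the A libraries. It left out C2 with B, C2 with A and C3 with A. Alternatives were no filter, quantile normalization, subtracting each library's median, robust empirical Bayes, leaving out each library, a replicate block, and a fit on the 4 libraries of each comparison. A fit without both A libraries and the comparisons C2 with B, C2 with A and C3 with A were added after seeing the data.

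The members and the gene lists were chosen with earlier results of these data known, and the promoter letters were searched after the values were seen. From each list, genes called in a comparison were named, at most 6 by size of difference. For likeness the 3 genes with the highest r were named. Gene positions and promoter sequence come from RefSeq (GRCm38.p6) and exon overlaps from the GENCODE annotation of GRCm38.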

Additional observations from a re-analysis of the deposited data

How the results depend on the processing

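Over the 80 differences of the 8 members, 46 were called, and 30 of these kept their call in every alternative run. The remaining 16 lost it in at least 1, and 0 of the called differences changed sign. Fitted on their 4 libraries alone, B relative to A called 1 member, C2 relative to A 1 and C3 relative to A 2. Over all genes that fit called 2538 in B relative to A (3835 in the main fit) and 2375 in C1 relative to A (3798). In C2 and C3 relative to A it called 1097 (2621) and 3949 (4892). Where A took no part totals stayed close, as in C2 relative to C1 (2841 against 2906) and C3 relative to B (6018 against 5895). The main fit shares 1 spread per gene over all types, while the 2 A libraries differed most. The part of that spread in the lost calls was not tested. Quantile normalization called 3 members in C3 relative to A, and the cause was not tested. Leaving out 1 library gave 1 to 3 called members in B relative to A, 5 to 6 in C1 relative to B, 4 to 5 in C1 relative to A, 5 to 6 in C2 relative to C1, 4 to 6 in C3 relative to C2, 4 in C3 relative to C1 in every run, 3 to 5 in C3 relative to B, 3 to 4 in C2 relative to B, 3 to 4 in C2 relative to A, 3 to 5 in C3 relative to A, and 7 to 8 members by the F test.

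The log2 differences that changed sign were all uncalled. Quantile normalization gave 0.012 for Dnmt1 and 0.16 for Dnmt3a in C2 relative to B, and 0.10 for Dnmt3b in C3 relative to A. Leaving out 1 library at a time, Tet1 ranged between -0.056 and 0.996 in C1 relative to A, and between -0.20 and 0.88 in C3 relative to B. Dnmt3b ranged between -0.034 and 0.98 in C2 relative to C1, -0.11 and 0.48 in C3 relative to B, and -0.31 and 0.28 in C3 relative to A. Dnmt3a ranged between -0.16 and 0.61 in C3 relative to C1, Dnmt1 between -0.15 and 0.083 in C2 relative to B, and Tet3 between -0.066 and 0.25 in C3 relative to A.

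The same replicate number did not pair samples: the correlation of their deviations lay between -0.061 and 0.089, and 0 of 10 pairs passed 0.1. With the replicate number as a block, the number of called members was the same in all 10 comparisons (3 in B relative to A and 6 in C2 relative to C1, for example) and the F test again passed 7. Without both A libraries the counts of called members in the 6 comparisons among B and the C types were the same. Over all genes, quantile normalization moved the split of calls in most comparisons. The split moved little in C3 relative to C1, from 2436 higher and 2529 lower to 2351 and 2280. In C2 relative to B it went from 2069 higher and 2765 lower to 2495 and 2553. Higher and lower calls numbered 2290 and 2240 in C1 relative to B (1799 and 3005 without it), 2217 and 2105 in C1 relative to A (1433 and 2365), 1948 and 2014 in C2 relative to C1 (1740 and 1166), 2079 and 1865 in C3 relative to C2 (1656 and 2315), 2507 and 2303 in C3 relative to B (2380 and 3515), 2387 and 2094 in C3 relative to A (2051 and 2841), 1801 and 1784 in C2 relative to A (1104 and 1517), and 1484 and 1714 in B relative to A (2066 and 1769). The depth of a member cannot be read from centred values, so a low value in C3 or C1 may or may not lie near the limit of detection, and 2 libraries per type limit every test.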
